A study of Mus musculus with 3 samples.

Results

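The Ifit genes encode interferon-induced proteins with tetratricopeptide repeats, and Ifit1, Ifit2 and Ifit3 were followed here in the livers of mouse fetuses at stage E14.5, counted in days. The genes were taken by symbol from the platform annotation of the probes, where each of the 3 had 1 probe, so they account for 3 of 20289 probes and 3 of 13697 named genes. RNA was read on 3 single-colour CodeLink oligonucleotide arrays, 1 from wild-type fetuses, 1 from DNase II-deficient fetuses and 1 from double-deficient fetuses. Both mutants lacked DNase II, and the double-deficient fetuses also lacked IFN-IR, which binds type I interferon. Strain, alleles and the number of fetuses behind an array are not stated here. Because each genotype has a single array, no difference has a replicate check or a test, and the number of arrays limits the precision.

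DNase II is the acid nuclease of lysosomes, with which macrophages of the fetal liver degrade the DNA of engulfed erythroid nuclei. Type I interferon binds a receptor of the Ifnar1 and Ifnar2 chains, whose kinases Jak1 and Tyk2 activate Stat2, which binds Irf9 and acts on genes through the interferon-stimulated response element. The Ifit genes are among the classical targets of this complex and can, in other cells, also be induced directly by Irf3. Their proteins bind RNA or other proteins. Ifit1 binds messenger RNA whose cap lacks methylation of the first nucleotide and blocks its translation, Ifit2 binds the initiation factor eIF3 and restricts several viruses in mice, and human IFIT3 binds and stabilises IFIT1.

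The promoter sequences are shown because the 3 genes were high in the same array in the data that follow and the response element is a matter of base sequence. All 3 genes matched the RefSeq promoter table of build GRCm38.p6, Ifit2 with 2 annotated starts. The 250 bases before each start are given 5′ to 3′ in lower case, and capitals mark matches to the core of the interferon-stimulated response element, read as TTTC, any 2 bases and TTTC again. It was searched on both strands (on the other, GAAA, any 2 bases and GAAA), with overlapping matches counted. All windows are on the plus strand of chromosome 19. They are chr19:34640639-34640888 for Ifit1, chr19:34583279-34583528 for Ifit3, and chr19:34550444-34550693 and chr19:34550838-34551087 for the first and the second start of Ifit2.
Ifit1: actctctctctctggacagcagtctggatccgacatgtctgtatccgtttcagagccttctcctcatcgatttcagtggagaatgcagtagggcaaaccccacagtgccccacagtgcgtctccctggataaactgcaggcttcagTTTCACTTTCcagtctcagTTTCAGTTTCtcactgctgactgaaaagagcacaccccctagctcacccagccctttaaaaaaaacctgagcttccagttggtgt
Ifit3: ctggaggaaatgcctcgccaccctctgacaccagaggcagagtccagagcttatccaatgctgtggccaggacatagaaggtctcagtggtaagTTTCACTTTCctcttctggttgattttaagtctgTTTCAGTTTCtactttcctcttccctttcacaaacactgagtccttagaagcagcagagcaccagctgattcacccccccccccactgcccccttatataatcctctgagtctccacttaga
Ifit2, first start: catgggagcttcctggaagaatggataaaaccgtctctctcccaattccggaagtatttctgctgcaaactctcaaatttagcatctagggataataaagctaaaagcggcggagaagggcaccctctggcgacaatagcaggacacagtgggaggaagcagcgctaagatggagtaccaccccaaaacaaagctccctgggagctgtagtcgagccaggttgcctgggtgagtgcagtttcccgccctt
Ifit2, second start: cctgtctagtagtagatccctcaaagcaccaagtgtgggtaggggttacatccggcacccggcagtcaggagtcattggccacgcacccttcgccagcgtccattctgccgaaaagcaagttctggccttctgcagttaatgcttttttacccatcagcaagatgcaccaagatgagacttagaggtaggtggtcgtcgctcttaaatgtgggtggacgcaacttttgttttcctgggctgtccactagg

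Ifit1 held 2 matches, TTTCACTTTC from -104 to -95 and TTTCAGTTTC from -85 to -76 relative to the start. Ifit3 held the same 2 decamers, from -156 to -147 and from -122 to -113. Neither Ifit2 window held a match, which says only that these letters are not in these windows. Of 32851 promoter windows of the same length in the table, 2.98% held the motif and 0.180% held it 2 or more times. The matches of Ifit1 were also those of Ifit1bl2, a neighbouring Ifit gene read from the other strand, since the windows of the 2 genes share 145 bases and both matches lie at the same positions. The window of Ifit3 and that of its near-copy Ifit3b were identical at 99.1% of 218 aligned bases. No probe was annotated to Ifit3b, Ifit1bl1 or Ifit1bl2, and the position of the Ifit probes within the transcripts is not known here, so signal from a near-identical copy cannot be told apart from that of the named gene.

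The tissue and the labels were examined first. The arrays had medians of 0.958, 0.959 and 0.964 in arbitrary units of normalised intensity, and the 7 measured hepatocyte and 7 measured erythroid markers all exceeded them, the lowest value being 4.68 for Epor in the DNase II-deficient array. The probe for Dnase2a, the gene of DNase II, read 40.4 in wild-type, 48.6 in DNase II-deficient and 39.7 in double-deficient liver. That for Ifnar1 read 3.60, 4.66 and 3.17, and that for Ifnar2 0.574, 0.485 and 0.483. None of the 3 targeted genes was 2-fold different in any comparison, and it is not known here whether their probes lie in deleted sequence, so the probes do not check the genotypes, and each direction is that of the arrays as labelled.

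All 3 Ifit genes were dim in the wild-type array, far brighter where DNase II alone was lacking by label, and dim again in the double-deficient array, where Ifit2 and Ifit3 lay near the wild-type level and Ifit1 above it. Ifit1 read 0.365 in wild-type, 45.7 in DNase II-deficient and 1.84 in double-deficient liver. Ifit3 read 0.573, 20.3 and 0.408 in the same order. Ifit2 read 0.176, 2.26 and 0.226. In each case the DNase II-deficient array was the highest, whereas the lowest was wild-type for Ifit1 and Ifit2 and double-deficient for Ifit3. In the wild-type array all 3 genes lay below the array median, and the Ifit2 value lay just above the 25th percentile of that array, 0.162, which served as a floor: lower values were set to it before taking logs. In the double-deficient array only Ifit1 of the 3 lay above the array median. Brightness is not compared between the genes, because each probe has its own response, and in whole liver more or fewer cells of a type and more or less RNA per cell cannot be told apart.

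**Figure D1:**
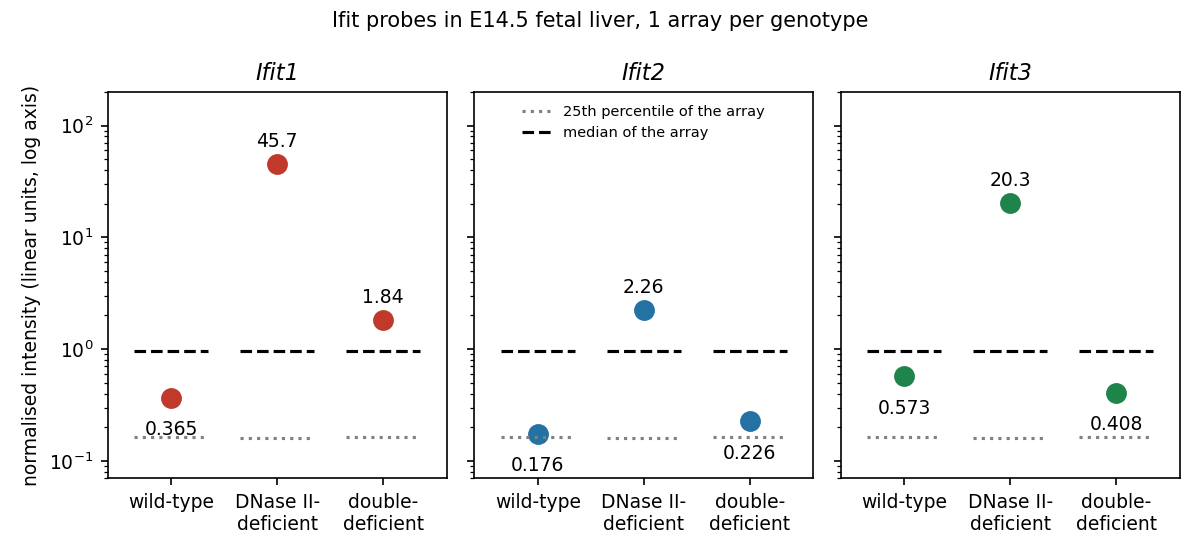
Normalised intensity of the Ifit1, Ifit2 and Ifit3 probes (log axis) in the arrays of the 3 genotypes (wild-type, then DNase II-deficient, then double-deficient), 1 point per array, with the median and the 25th percentile of each array as lines. Each gene is highest in the DNase II-deficient array, at 45.7, 2.26 and 20.3, and in the double-deficient array only Ifit1, at 1.84, lies above the median line.

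The first comparison asks what the loss of DNase II alters in the liver. Ifit1 was higher by 125-fold in the DNase II-deficient array than in wild-type, a log2 difference of 6.97. Ifit3 was 35.4-fold higher (log2 difference 5.15) and Ifit2 12.9-fold (3.68). These sizes rest on dim wild-type values, that of Ifit2 just above the floor: with the floor at the array median the log2 differences of Ifit1, Ifit3 and Ifit2 were at least 5.58, 4.40 and 1.24, and with log2(value + 1) they were 5.10, 3.76 and 1.47. A gene was compared if its probe exceeded the median of 1 or both of the arrays, and the Ifit genes entered through the DNase II-deficient array alone, in which they are high. Ifit genes at least 2-fold higher were 3 of 3, which that entry favours, beside a background of 7.67% of 8383 genes. Genes lower by 2-fold or more made up 6.17%. A local spread, the scaled median absolute deviation of the difference among the 500 genes nearest in mean level, was 0.52, 0.50 and 0.63 for Ifit1, Ifit3 and Ifit2, which describes these arrays and not replicates. Over all genes compared the median was -0.21 on the log2 scale with the deposited values and 0.02 after cyclic loess, and relative to the first value the Ifit genes lay at 7.17, 5.35 and 3.89 in the same order. Of the genes at least 2-fold different in either direction 55.4% were higher as deposited, against 65.8% after quantile normalization, 67.1% after scaling to the 75th percentile, and 73.7% after cyclic loess.

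The next question is what loss of the receptor alters in livers that already lack DNase II. Ifit3 was lower in the double-deficient than in the DNase II-deficient array by 49.7-fold, a log2 difference of -5.63. Ifit1 was 24.8-fold lower (-4.63) and Ifit2 was lower with a log2 difference of -3.32. With the floor at the array median those of Ifit3 and Ifit2 were at most -4.40 and -1.23, and with log2(value + 1) Ifit3, Ifit1 and Ifit2 gave -3.92, -4.04 and -1.41. At least 2-fold lower were 3 of 3, of which Ifit2 and Ifit3 entered through the DNase II-deficient array alone and Ifit1 through both, beside 4.85% of 8303 genes compared. Genes higher by 2-fold or more made up 3.11%. With the deposited values Ifit3 thus had the largest difference here and Ifit1 in the first comparison, an order that log2(value + 1) did not keep. The local spread was 0.41 for Ifit3, 0.38 for Ifit1 and 0.44 for Ifit2, and the median of all genes compared was 0.11. Higher genes made up 39.0% of the 2-fold differences as deposited, 31.7% after quantile normalization, 30.4% after scaling to the 75th percentile and 25.4% after cyclic loess. Both comparisons use the DNase II-deficient array, so a high value in it raises the size of both.

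The double-deficient array was then set against wild-type, which asks what remains of the difference without the receptor. Ifit1 was 5.04-fold higher in the double-deficient array, a log2 difference of 2.33 with a local spread of 0.35. It was the 1 Ifit gene that could be compared, through the double-deficient array alone, in which it is the higher. Beside it, 2.05% of 8158 genes were at least 2-fold higher and 0.735% lower by 2-fold or more. With the array median as the floor the Ifit1 difference was a lower bound of 0.94, under 2-fold, because its wild-type value lies below that floor. With log2(value + 1) it was 1.06, and with the filter set at the 75th percentile Ifit1 was not compared here. Ifit2 and Ifit3 lay below the median in both arrays and did not pass the filter. Their log2 differences were 0.36 for Ifit2, within its local spread of 0.60, and -0.49 for Ifit3, against a local spread of 0.40. With log2(value + 1) these were 0.06 and -0.16. On the linear scale the part of the DNase II-deficient excess over wild-type that was left in the double-deficient array was 3.25% for Ifit1, 2.41% for Ifit2 and -0.835% for Ifit3, the negative value meaning a level below wild-type. Whether the genes differ in what remains cannot be tested with 1 array per genotype.

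**Figure D2:**
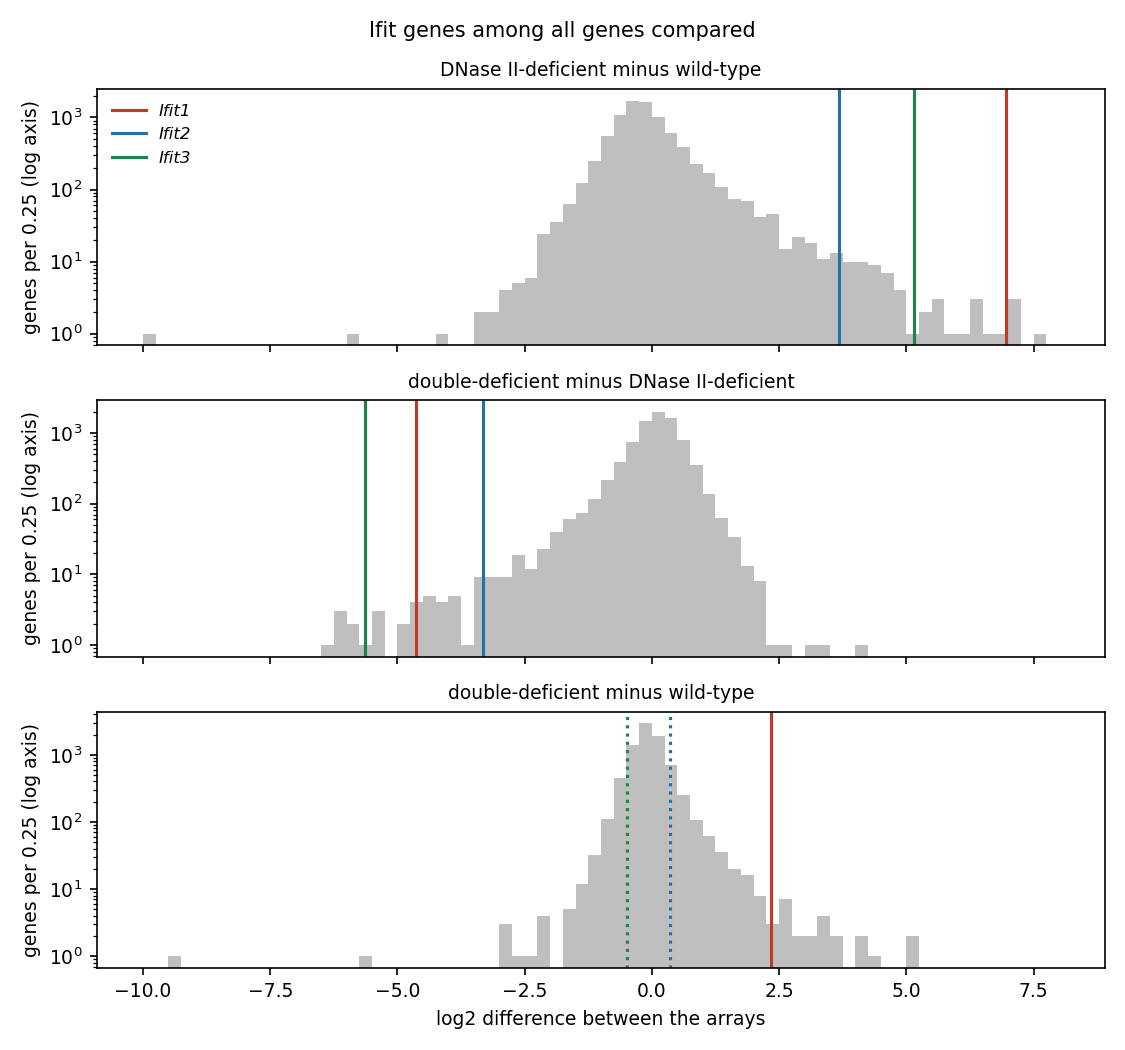
Number of genes (log axis) by log2 difference in bins of 0.25 for each of the 3 comparisons, with the Ifit genes as coloured lines, dotted where the gene did not pass the filter on low values. Ifit1, Ifit2 and Ifit3 lie far to the right in DNase II-deficient minus wild-type and far to the left in double-deficient minus DNase II-deficient, and only Ifit1, at 2.33, stays apart in double-deficient minus wild-type.

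Markers of other cell types were examined because the liver at this stage holds several. Of 9 granulocyte and mast cell markers compared, 7 were at least 2-fold higher in the DNase II-deficient array, beside 7.67% of 8383 genes. The other 2, the mast cell protease genes Cpa3 and Mcpt8, were lower there, at 1.43 and 1.32 against 2.35 and 2.14 in wild-type. Both were highest in the double-deficient array, at 2.98 and 3.07. The summed level of all 10 measured was 273 in wild-type, 768 in the DNase II-deficient array and 621 in the double-deficient array. Of 7 macrophage markers compared 1 was at least 2-fold higher and 3 were lower by 2-fold or more, beside 7.67% and 6.17% of 8383 genes. The higher was Fcgr1, which read 4.22, 21.3 and 6.03. The lower were Marco, at 41.1, 3.98 and 13.5, Cd5l, at 30.6, 3.41 and 4.10, and Clec4f, at 1.27, 0.177 and 0.0902. Summed levels over 8 measured were 95.9, 49.0 and 43.7, and Marco and Cd5l made up most of the wild-type sum. Plasmacytoid dendritic markers, 3 measured, summed to 5.04, 10.1 and 4.29, and that sum holds Irf8, which is also among the interferon regulatory factors below. Tcf4 read 4.22, 7.46 and 3.25, Irf8 0.431, 2.29 and 0.718, and Ly6d, which did not pass the filter, 0.389, 0.319 and 0.320. Mesenchymal markers, 6 measured, summed to 95.0, 155 and 109, and 2 of 5 compared were at least 2-fold higher in the DNase II-deficient array. Lymphoid markers, 7 measured, summed to 17.7, 14.2 and 15.3, with Cd3e and Klrb1c at or below the 25th percentile in all 3 arrays and 1 of 4 compared, Nkg7, 2.07-fold higher in the DNase II-deficient array. Erythroid markers, 7 measured, summed to 1761, 1443 and 1621, with 4 at least 2-fold lower in the DNase II-deficient array, beside 6.17% of 8383 genes. Hepatocyte markers summed to 2848, 3022 and 2652. Of these 7 markers 1, Serpina1a, was at least 2-fold lower in the DNase II-deficient array, beside the same share, and read 294, 130 and 248. Afp went the other way, at 582.5, 885 and 568. Megakaryocyte markers, 5 measured, summed to 230.1, 166 and 162, and endothelial markers, 5 measured, to 36.5, 24.5 and 32.6. Of the 5 megakaryocyte markers 0 were 2-fold different between the DNase II-deficient and the wild-type array. Among them Ppbp read 158, 96.1 and 99.9, Pf4 54.6, 53.4 and 47.2, and Itga2b 2.42, 3.33 and 1.66. Of 4 endothelial markers compared, Pecam1 was at least 2-fold higher in the DNase II-deficient array than in wild-type and Stab2 was 2.26-fold lower, and both lay nearer to wild-type in the double-deficient array. Pecam1 read 0.775, 2.01 and 0.925, and Stab2 23.0, 10.2 and 22.1. Pecam1, Nkg7 and Lrat, 1 of the 2 mesenchymal markers, entered through the DNase II-deficient array alone, which favours calling them higher. The part of these cells in the Ifit values was not tested.

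The genes whose pattern was nearest to each Ifit gene were sought among 7958 genes above the 25th percentile in all 3 arrays and above the median in the DNase II-deficient array. Nearness was the distance in the plane of 2 log2 differences, DNase II-deficient minus wild-type and double-deficient minus DNase II-deficient, over 3 arrays. The difference of double-deficient minus wild-type is the sum of these 2, so picking near genes favours a like difference there as well. Nearest to Ifit1 was Oasl1, an oligoadenylate synthetase-like gene whose protein in mice holds back Irf7 translation, at a distance of 0.66. Oasl1 read 0.407, 40.0 and 2.38 and was 5.83-fold higher in the double-deficient array than in wild-type, a direction shared with Ifit1 through the selection. The next were Hspa1a, the inducible heat shock protein gene, at 0.90, and Zbp1, a sensor of Z-form nucleic acids, at 0.94. Zbp1 read 0.192, 12.6 and 0.566. Oasl2 and the nuclear body gene Sp100 followed at 1.07 and 1.44.

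Nearest to Ifit3 was Rtp4, an interferon-induced gene that also restrains interferon responses in mice, at 0.32. It read 1.05, 43.1 and 0.740 and was lowest in the double-deficient array, which its selection as near to Ifit3 favours. Ms4a4c, Irf7, Usp18 and Mx2 followed at 0.56, 0.76, 0.97 and 1.02. Irf7 is the transcription factor that amplifies interferon production, and Usp18 removes Isg15 and restrains the receptor. Irf7 and Mx2 also read lower in the double-deficient array than in wild-type, with log2 differences of -0.48 and -0.30.

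Nearest to Ifit2 were Stc2, a stanniocalcin gene, at 0.13, and Rnf213, a large ubiquitin ligase gene, at 0.17. Rnf213 read 4.90, 63.6 and 7.15, a similar relative course far above the floor. Klrk1, which encodes the NKG2D receptor, Ms4a6b and Herc6, the Isg15 ligase of mice, followed at 0.31, 0.36 and 0.39. The Ifit genes were farther from each other than from these genes, at 2.08 for Ifit1 and Ifit3, 2.74 for Ifit2 and Ifit3 and 3.53 for Ifit1 and Ifit2. Of the 15 nearest genes 11 had a promoter window, and 0 of them held the response element core, against 3.46% of all 27025 genes with a window, and 11 genes are too few to compare with a share of that size.

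**Figure D3:**
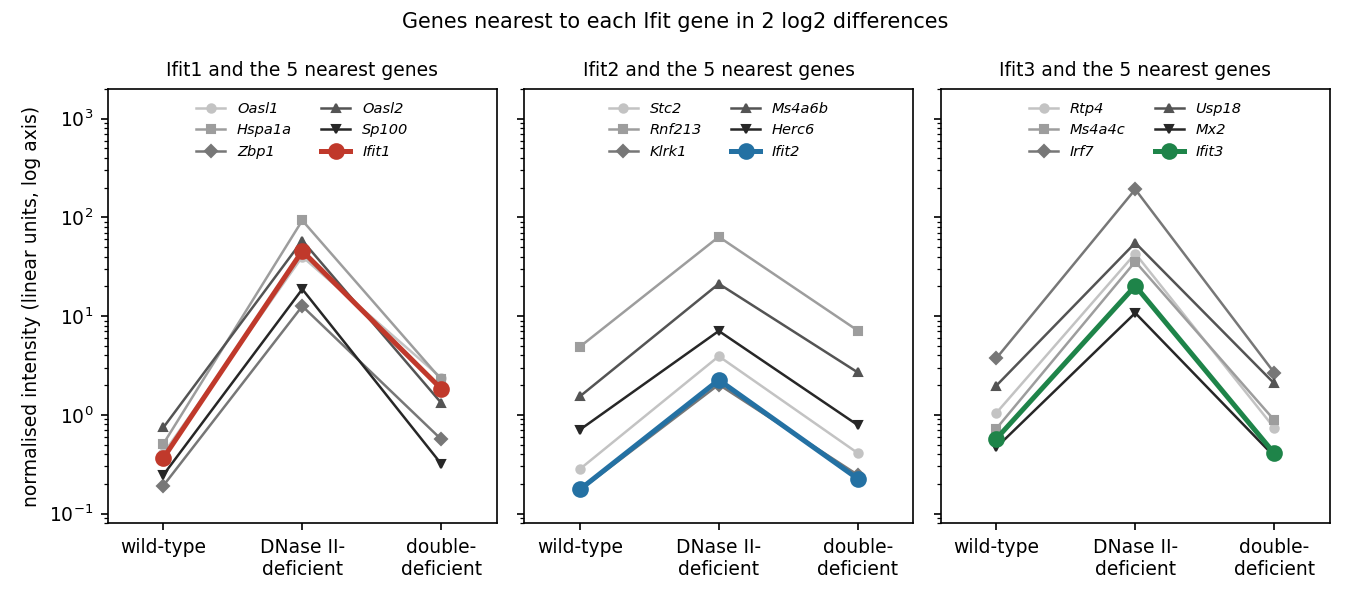
Normalised intensity (log axis) of each Ifit gene (coloured) and of the 5 genes nearest to it in the 2 log2 differences (grey) across the arrays of the 3 genotypes. Oasl1 and Ifit1 stay above their wild-type levels in the double-deficient array, at 2.38 and 1.84, while Rtp4 and Ifit3 lie below theirs, at 0.740 and 0.408. The grey genes were picked for nearness, which favours such shared courses.

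The steps that lead from the interferon gene to the Ifit genes were described from the ligands on. Of 15 type I interferon genes listed 7 were measured and 0 passed the filter on low values. Ifnb1, the interferon beta gene, read 0.105, 0.471 and 0.456, with the wild-type value below the 25th percentile, so that it was at least 2.91-fold higher in the DNase II-deficient array than in wild-type. Ifna9 read 0.133, 0.375 and 0.128, at least 2.32-fold higher in the DNase II-deficient array than in wild-type and at least 2.30-fold lower in the double-deficient array. Ifnab read 0.625, 0.852 and 0.689, Ifna4 0.176, 0.210 and 0.214, and Ifna7 0.905, 0.901 and 0.925. Ifna6 and Ifna11 were at the floor in all 3 arrays, and every value of these 7 genes lay under the array median. Of 6 measured genes of receptor signalling, 5 were compared in the first comparison and 2 were at least 2-fold higher, both partners in the complex that acts on the Ifit genes. The share of all 8383 genes compared was 7.67%, and Stat2 entered through the DNase II-deficient array alone. Stat2 read 0.877, 4.99 and 0.873, and Irf9 2.09, 9.58 and 1.42. The kinase genes Jak1 and Tyk2 read 132.8, 87.3 and 161 and 4.30, 6.28 and 5.59.

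Among interferon regulatory factors 3 of 5 compared were at least 2-fold higher in the DNase II-deficient array, Irf7, Irf8 and Irf1, beside 7.67% of 8383 genes. Irf8 entered through the DNase II-deficient array alone. Irf1, which binds related promoter elements, read 3.40, 16.4 and 10.3 and stayed 3.02-fold above wild-type in the double-deficient array. Irf3 read 4.02, 2.64 and 3.74, and Irf2 lay at the floor in all 3 arrays. Of 7 genes that restrain receptor signalling 3 were at least 2-fold higher in the DNase II-deficient array, Usp18, Socs1 and Ptpn6. Of these Socs1 entered through the DNase II-deficient array alone. Socs1, an inhibitor of Jak kinases, read 0.373, 2.65 and 0.700. The median log2 differences over genes above the floor in at least 1 array were 0.46 for receptor signalling, 1.46 for the regulatory factors and 0.72 for the restraining genes, against 5.15 for the 3 Ifit genes and -0.21 for all genes compared.

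Other interferon-stimulated antiviral genes, not all of them directed at viral RNA, gave the closest setting. Of 25 measured, 24 were compared, of which 21 were at least 2-fold higher in the DNase II-deficient array and 0 were that much lower. The shares of all 8383 genes compared were 7.67% and 6.17%. Many of the 24, such as Rsad2 and Sp100, entered this and the next comparison through the DNase II-deficient array alone. They are high in that array, so the entry favours such counts. The median was 3.06 over all 25, each of them above the floor in at least 1 array. Rsad2, the viperin gene, read 0.181, 24.8 and 0.319, and Sp100 read 0.247, 18.8 and 0.319. In double-deficient minus DNase II-deficient 22 of 24 were at least 2-fold lower, beside 4.85% of 8303 genes, and the median was -2.92. In double-deficient minus wild-type 14 were compared, and 4 were at least 2-fold higher, named here because they are few: Oasl1, Slfn2, Ifitm3 and Ifitm1, at 5.83-fold, 2.96-fold, 2.22-fold and 2.09-fold. The share of all 8158 genes compared was 2.05%, and Oasl1 entered through the double-deficient array alone. Of 20 genes of this list with a promoter window 5 held the response element core, beside 3.46% of all 27025 genes with a window. The core was also held by 5 of 6 type I interferon genes and 1 of 8 eIF3 subunits with a window. In the other lists it was held by 1 of 6 receptor signalling genes, 1 of 7 regulatory factors and 1 of 5 restraining genes. Of genes of cap recognition and cap methylation 0 of 5 held it, and of targeted genes 0 of 3.

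The eIF3 complex, which Ifit proteins bind, and the enzymes and factors of the messenger RNA cap were examined next. Of 11 measured eIF3 subunits 0 were 2-fold different in any of the 3 comparisons, with medians of -0.18, 0.17 and -0.12. Eif3e, a subunit that human Ifit proteins bind, read 49.1, 56.4 and 40.1, and Eif3k, with the largest difference of the list in the first comparison, read 80.0, 45.0 and 57.4. Of 8 genes of cap recognition and cap methylation, 7 were compared and 0 were 2-fold different. Cmtr1, which adds the methyl group on the first nucleotide that protects a messenger RNA from Ifit1, read 4.74, 8.83 and 4.43, with a log2 difference of 0.90 in the first comparison. Eif4ebp1, which restrains the cap-binding factor Eif4e, read 14.3, 25.9 and 13.4, a log2 difference of 0.86. Cmtr2, which methylates the next nucleotide, read 2.85, 2.07 and 2.89. Rngtt, the capping enzyme gene, did not pass the filter and read 0.915, 0.371 and 0.470, 2.47-fold lower in the DNase II-deficient array than in wild-type.

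**Figure D4:**
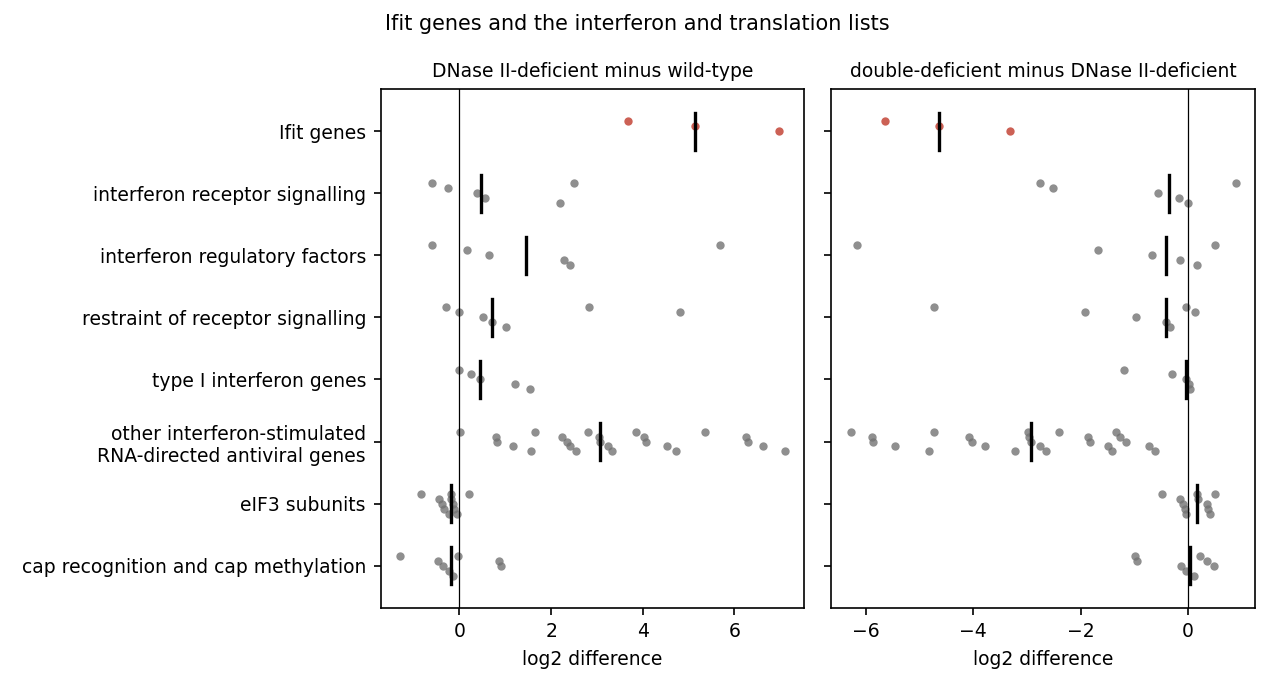
Log2 differences of the Ifit genes (red) and of the listed genes (grey), 1 point per gene with the median as a bar, for DNase II-deficient minus wild-type and double-deficient minus DNase II-deficient, leaving out genes at the floor in both arrays and drawing lower bounds at their bound. The medians of the 3 Ifit genes, 5.15 and -4.63, lie beyond those of the other antiviral genes, 3.06 and -2.92, but the single genes overlap. Of the other antiviral genes Rsad2, at 7.10 and -6.28, lies beyond every Ifit gene as deposited, and Ifit2, at 3.68 and -3.32, lies within their range. Rsad2 read 0.181 in wild-type, just above the floor of 0.162, so its order against Ifit1 in the first comparison rests on dim values. The eIF3 subunits lie near 0.

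The surroundings of the genes on chromosome 19 were examined last. In the RefSeq order of GRCm38.p6 the 6 Ifit genes lie together, Ifit2 first and Ifit1 last, and 8 of the 10 protein-coding neighbours, 5 on each side, had a named probe. Ch25h, the cholesterol 25-hydroxylase gene and itself known as interferon-induced, read 0.149, 3.97 and 0.176. It was at least 24.5-fold higher in the DNase II-deficient array than in wild-type and 22.6-fold lower in the double-deficient than in the DNase II-deficient array. Lipa, the lysosomal acid lipase gene that lies between Ch25h and Ifit2, read 1.16, 1.72 and 1.24. Acta2, the smooth muscle actin gene, read 6.40, 16.2 and 10.2 and was 2.54-fold higher in the DNase II-deficient array. Fas and Stambpl1 read 0.760, 1.34 and 1.14 and 1.14, 1.63 and 1.61. On the far side Pank1, Htr7 and Rpp30 had log2 differences of -0.21, 0.15 and -0.36 in the first comparison, and none of these 3 was 2-fold different there.

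**Figure D5:**
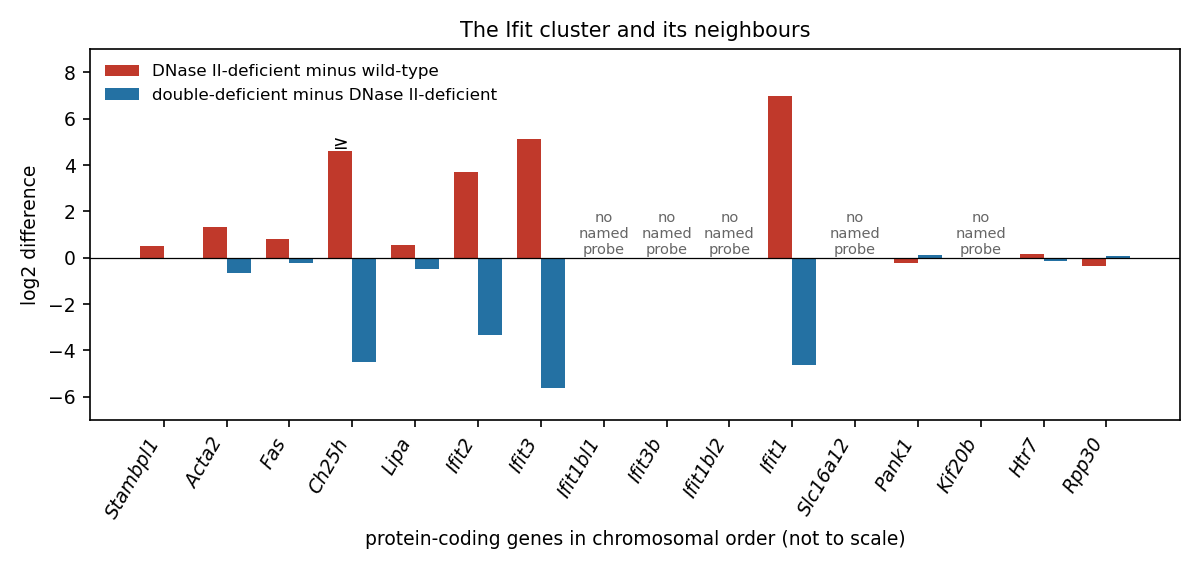
Log2 difference of the Ifit genes and of 5 protein-coding neighbours on each side, in chromosomal order and not to scale, for DNase II-deficient minus wild-type (red) and double-deficient minus DNase II-deficient (blue); the mark above Ch25h shows a lower bound. Ch25h and the 3 measured Ifit genes differ by more than 3 in both comparisons, while Lipa, which lies between Ch25h and Ifit2, differs by 0.57 and -0.47.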

How the data were processed

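RNA of fetal liver was measured on 3 arrays, 1 per genotype. Per the labels' protocols the authors selected poly(A) RNA, labelled transcribed RNA with biotin, stained with Cy5 and analysed the images with CodeLink System Software. The deposited values are normalised intensity on a linear scale, 1 per probe and array. The sources used here do not give how the software normalised and subtracted background. Between 224 and 267 values per array lay at or below 0, and dim values, such as that of Ifit2 in wild-type, are uncertain.

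Of 20289 probes 20164 had values in all 3 arrays. The platform annotation gave 15120 probes 1 symbol, 38 several and 5131 none, and the probe with the highest mean stood for a gene. Before log2, any value under an array's 25th percentile was raised to that floor, and a gene was compared if it exceeded the median of either array. With 1 array per group there is no test, and called means at least 2-fold. A fold against an array at the floor is a lower bound. Named are every Ifit probe, the 5 nearest genes of each, up to 4 genes per list with the largest difference measured in both arrays, the neighbours, and targeted genes; Irf2, Irf3, Ifnb1, Ifna9, Ifna6, Ifna11, Eif3e, Slfn2, Ifitm3, Ifitm1 and the cell type markers were picked for naming with their values in view. The members and lists were chosen with earlier results of these data known. Steps were tested on simulated data with Python 3.11.15, numpy 2.4.6, pandas 2.3.3 and statsmodels 0.14.6. Alternatives concerned the floor, a pseudocount, scaling, the filter and the probes.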

Additional observations from a re-analysis of the deposited data

How the results depend on the processing

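Under the 3 scalings (quantile, 75th percentile, cyclic loess) all 27 Ifit log2 differences kept their sign and moved by less than the local spread. The floor at the 10th percentile leaves the Ifit values as they are by construction, and a higher floor or a pseudocount can hardly turn a sign, so these bear on size alone. Low values set the size. With the floor at the array median, DNase II-deficient minus wild-type was 5.58 for Ifit1, 1.24 for Ifit2 and 4.40 for Ifit3, as lower bounds, double-deficient minus DNase II-deficient was -1.23 for Ifit2 and -4.40 for Ifit3, and double-deficient minus wild-type was 0.94 for Ifit1; Ifit2 and Ifit3 were then at the floor in both arrays of the last comparison and gave no value. With log2(value + 1) the first comparison gave 5.10, 1.47 and 3.76, the second -4.04, -1.41 and -3.92, in the order Ifit1, Ifit2, Ifit3, and the third 1.06, 0.06 and -0.16. Genes at least 2-fold different numbered 1160, 661 and 227 in the 3 comparisons, 651, 356 and 101 with log2(value + 1), and 631, 350 and 92 with the filter at the 75th percentile, under which Ifit2 is not compared in any and Ifit1 and Ifit3 not in the last; without a filter the last count was 356. Under the scalings, an alternative chosen after seeing the data for this measure, the excess left in the double-deficient array ranged from 2.95% to 3.11% for Ifit1, 2.17% to 2.56% for Ifit2 and -0.836% to -0.662% for Ifit3. Other probes of the Ifit genes were not run, as each has 1. No paired analysis was possible because each genotype has 1 array.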

Other observations

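The wild-type value of Ifit2 was shared to the last deposited digit by 4 probes, its DNase II-deficient value by 2 and its double-deficient value by 3, counting its own, whereas no other probe shared a value of Ifit1 or Ifit3.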
